A study of Homo sapiens with 6 samples.

Results

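Transcripts of the autophagy machinery were examined in 6 RNA sequencing libraries. The set was taken by name from the gene tables, as every gene with an Atg number name plus 20 further named components, and it held 38 of 53492 genes. The name pattern gave 18 of the 38. The rule used names only, although it was written with earlier results of these data known. Each library was of cells labelled SH-SY5Y, a human neuroblastoma line. The 3 GFP libraries were labelled as transfected with the plasmid pCS2-eGFP-N, which gives green fluorescent protein alone. The 3 GFP-CCNB1IP1 libraries were labelled as transfected with pCS2-eGFP-CCNB1IP1, and all 6 libraries therefore came from transfected cells. CCNB1IP1, also known as HEI10, is a ubiquitin ligase named for binding cyclin B1. The time after transfection, the share of cells transfected and untransfected controls are not given in the labels.

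Autophagy encloses cytoplasm in a double membrane, the autophagosome, and delivers it to the lysosome. The ULK kinase complex starts the process, a lipid kinase complex built around VPS34 and Beclin 1 marks the membrane, and lipid carriers let it grow. A pair of ubiquitin-like conjugation reactions then attaches proteins of the ATG8 family to the membrane, and cargo receptors bind both these proteins and the material to be degraded. Neurons depend on this pathway for clearing protein aggregates and worn organelles. Much of its control acts on the proteins, so transcript levels describe the supply of components and not the rate of autophagy.

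The tables carried mouse gene names, and 0 of their identifiers matched the human gene table, so every value here belongs to a mouse gene, although the labels name human cells. Values are FPKM, fragments counted on a gene relative to its transcript length and to the size of the library, a unit scaled per length that allows levels of different genes to be compared. The mouse gene Ccnb1ip1 lay between 7.36e-08 and 0.191 FPKM over the 6 libraries, so it does not check the labels unless the introduced sequence was of mouse, which the labels do not say. Of 14 noradrenergic neuroblastoma markers, 11 had a mean of at least 1 FPKM, with Hand2 at 111 to 140 FPKM and Dbh at 0.371 to 1.14 FPKM. Of 7 mesenchymal neuroblastoma markers, 3 had a mean of at least 1 FPKM, among them Vim at 684 to 829 FPKM. The mouse histocompatibility genes H2-K1 and H2-D1 had 355 to 406 and 233 to 247 FPKM. The species and type of the cells were not tested with these values. Markers of immune, glial and epithelial cells had means under 1 FPKM throughout, as did all but 1 of 6 fibroblast and 1 of 4 endothelial markers. Relative depth, estimated from the deposited intervals with the GFP mean set at 1, was lowest at 0.743 in GFP-CCNB1IP1 replicate 2 and 0.950 to 1.06 in the others. Nothing in the labels says that replicates were separate cultures, so the spread behind the p-values may be technical.

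All 38 autophagy genes were detected, and none passed the test for a difference between the groups (limma, adjusted p under 0.05). Every one was above 0 in each library and had a mean of at least 1 FPKM, so none was lost to the filter on low values. Their mean levels over the 6 libraries spanned 71.3-fold, from 1.29 FPKM for Atg4c to 92.3 FPKM for Wipi1. A group of 20 stood at 10 FPKM or more in each library, and the same number lay above the median of all genes tested. The plot of levels by role shows that ATG8 family members occupied the upper part of this range, while most conjugation enzymes lay below the median of all genes tested.

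**Figure D1:**
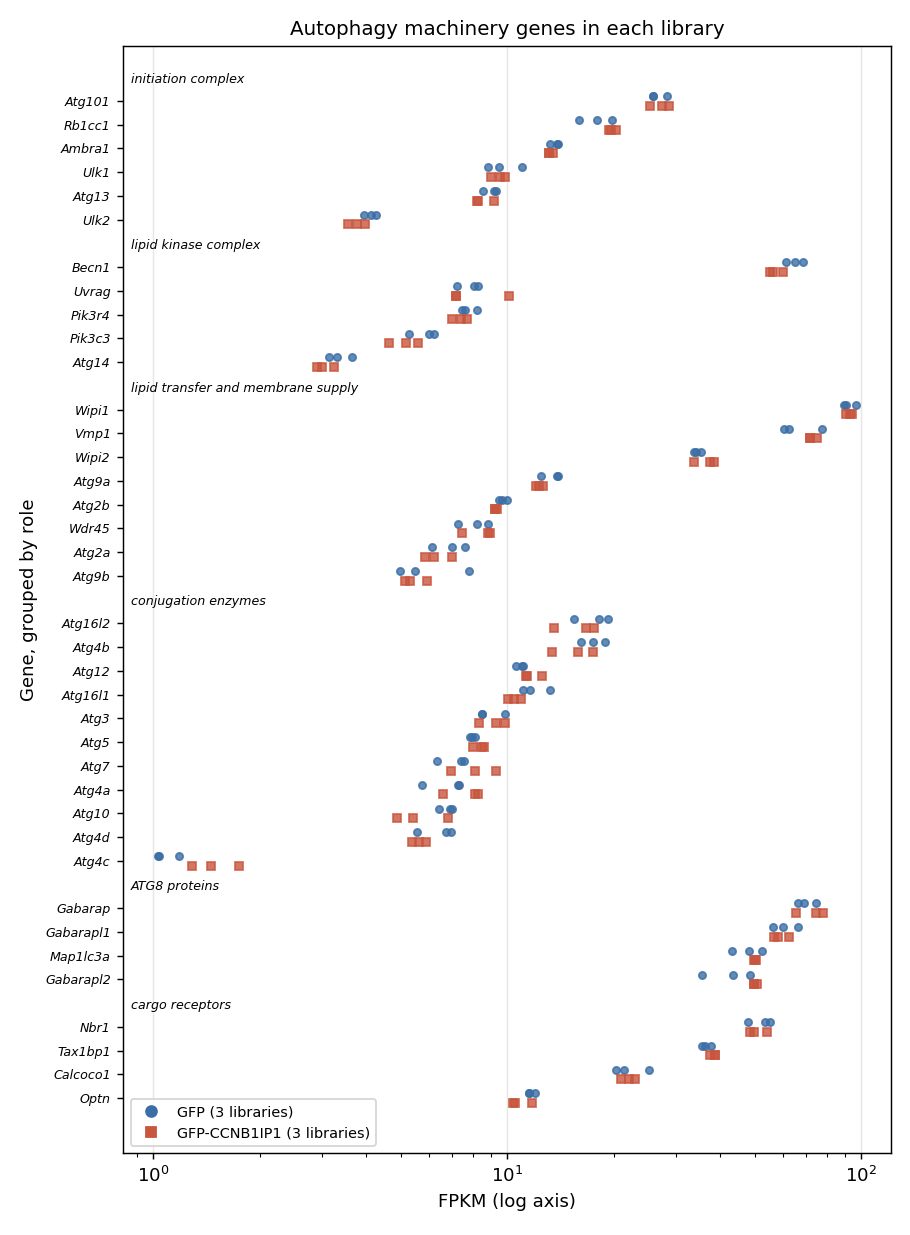
FPKM (log axis) of the 38 autophagy genes, grouped by role and ordered by mean level within a role; circles are the 3 GFP libraries and squares the 3 GFP-CCNB1IP1 libraries. Levels run from about 1 FPKM for Atg4c to over 90 FPKM for Wipi1, and the libraries of one gene lie close together compared with the distances between genes.

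Differences between the groups were tested with limma on log2(FPKM + 1), fitted over all 13231 genes with a mean of at least 1 FPKM. The fold changes given below are on that scale, where the added 1 shrinks the change of weakly expressed genes. Of all genes tested, 1 passed at an adjusted p under 0.05, or 0.00756%, and it was not one of the 38. Adjusted p-values of the autophagy genes ran from 0.329 to 0.971. At an unadjusted p under 0.05 there were 2 of 38, or 5.26%, against 11.4% of all genes tested. One was higher, against a background of 5.59%, and one was lower, against 5.77%. The groups did not overlap for 6 of 38, or 15.8%, against 17.6% of all genes, with 3 higher against 8.70% and 3 lower against 8.90%. Fold changes ran from -0.22 to 0.26, with 17 positive, 21 negative and a median of -0.038, beside a median of 0.0037 over all genes tested.

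The intervals give the precision of each fold change on log2(FPKM + 1), from the spread among these libraries. That spread may be technical, so they need not bound a difference between separate cultures. On this scale the 95% intervals of all 38 fold changes lay within a 1.5-fold change in either direction, and 22 of the 38 lay within 1.25-fold. The limits depend on the added constant for weakly expressed genes: with 0.1 added in place of 1, the fold change of Atg4c was 0.42 and not 0.26. The outermost bounds were ratios of 0.717 and 1.46 between the groups, taken on FPKM + 1. The standard errors had a median of 0.082, beside 0.089 over all genes tested. The tightest interval was that of Wipi1, from -0.10 to 0.12, and the widest was that of Atg9b, from -0.45 to 0.22. These intervals are for single genes and are not adjusted for the number of genes.

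**Figure D2:**
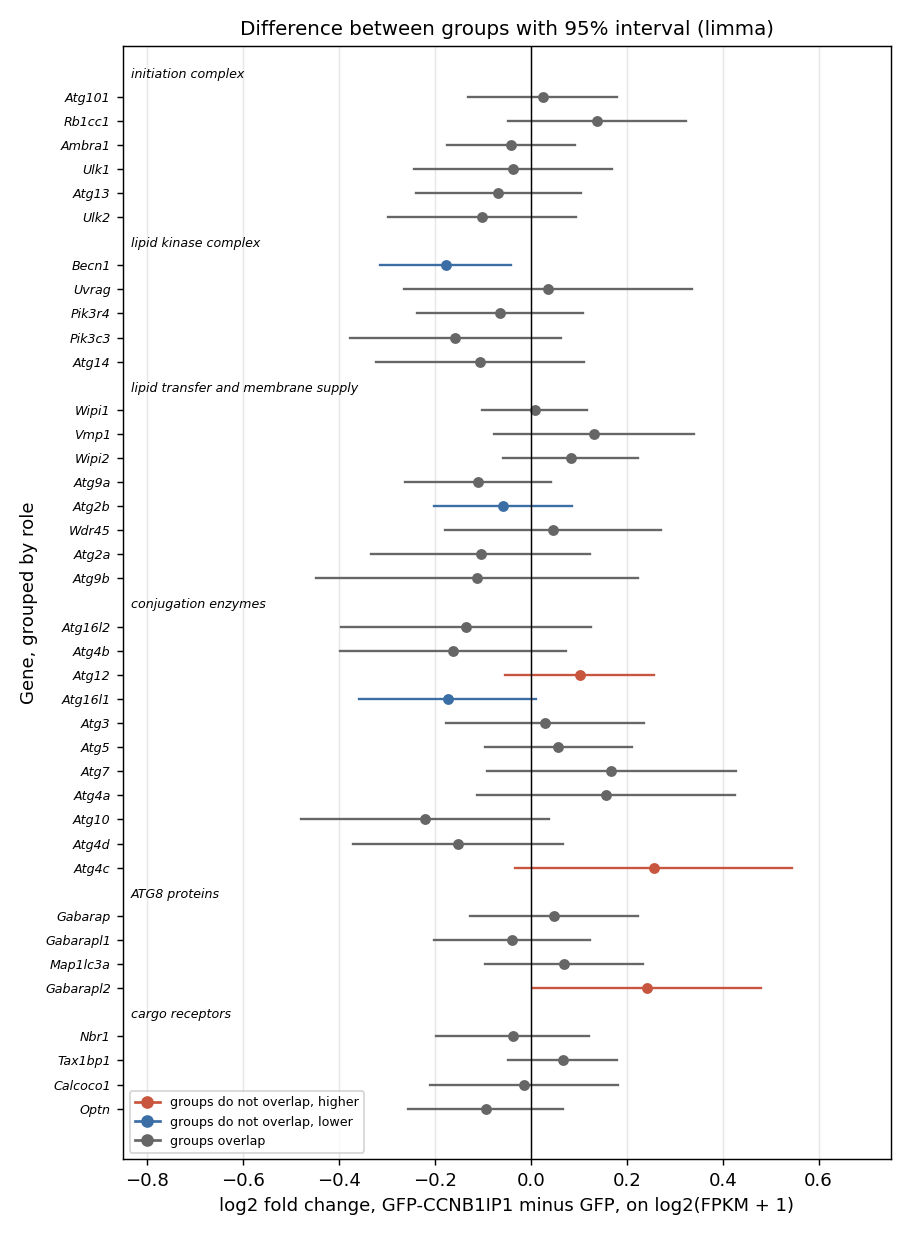
Log2 fold change of each autophagy gene (GFP-CCNB1IP1 minus GFP, on log2(FPKM + 1)) with its 95% interval from limma, grouped by role; red and blue mark genes whose 3 libraries per group did not overlap. Only the intervals of Becn1 and Gabarapl2 leave out 0, and neither gene passed after adjustment.

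The ULK initiation complex receives nutrient and energy signals and starts autophagosome formation. The 6 genes listed under this role, Ambra1 counted among them, had 2 positive and 4 negative fold changes, and in none of them did the groups separate. Ulk1, the gene of the main initiating kinase, had 8.83, 11.01 and 9.45 FPKM in GFP replicates 1 to 3 and 8.98, 9.55 and 9.83 FPKM in GFP-CCNB1IP1 replicates 1 to 3. The GFP-CCNB1IP1 values lay inside the GFP range, and the fold change was -0.038 (SE 0.089; limma, adjusted p = 0.903). Its relative Ulk2 was the lower of the pair in each library, at means of 4.11 and 3.76 FPKM, and the ratio of Ulk1 to Ulk2 lay between 2.15 and 2.61. Atg101, a small subunit that stabilises Atg13 in the complex, was the most abundant member at 26.6 ± 1.43 FPKM with GFP alone (SD, n = 3) and 27.1 ± 1.72 with GFP-CCNB1IP1. Atg13, which links the kinase to its scaffold, had 8.997 ± 0.401 and 8.54 ± 0.547 FPKM.

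Rb1cc1, which encodes the large scaffold FIP200, had 17.9, 19.8 and 16.0 FPKM with GFP alone and 20.2, 19.4 and 19.6 FPKM with GFP-CCNB1IP1. GFP replicate 2 overlapped the GFP-CCNB1IP1 values, and the other GFP libraries were below them. Ambra1, which connects the ULK and Beclin 1 complexes and brings ubiquitin ligases to them, had 13.6 ± 0.385 and 13.2 ± 0.210 FPKM. Atg13 and Ambra1 are also neighbours on mouse chromosome 2, with 19557 bases between them in the tables.

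In the lipid kinase complex, which makes the phosphatidylinositol phosphate that marks the growing membrane, 4 of 5 genes had negative fold changes. Becn1, the gene of the Beclin 1 subunit, had the smallest p among the 38 (ENSMUSG00000035086.14, chromosome 11, 101176778 to 101193112, in a mouse build that the sources used here do not name). It had 61.3, 68.4 and 64.8 FPKM with GFP alone and 60.2, 55.1 and 56.2 FPKM with GFP-CCNB1IP1. All GFP-CCNB1IP1 values were below all GFP values, with a gap of about 1 FPKM between GFP-CCNB1IP1 replicate 1 and GFP replicate 1. The fold change was -0.18 (SE 0.059; 95% interval -0.31 to -0.042), or 0.884 times the GFP value. The unadjusted p was 0.0167 and the adjusted p = 0.329 in limma, so the difference did not pass. With 1 library left out the fold change ran from -0.22 without GFP replicate 1 to -0.14 without GFP replicate 2.

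Becn1 held most of the transcripts of this complex in every library, from 69.5 to 73.4% of the summed FPKM of the 5 genes. Pik3c3, the catalytic subunit VPS34, had 6.21, 5.30 and 6.03 FPKM with GFP alone and 5.59, 4.63 and 5.19 FPKM with GFP-CCNB1IP1, and the groups overlapped. Pik3r4, the regulatory subunit VPS15, had 7.76 ± 0.408 and 7.38 ± 0.368 FPKM. Atg14 and Uvrag are alternative partners that direct the kinase to autophagosome formation or to endosomes. Atg14 had 3.37 ± 0.257 and 3.06 ± 0.17 FPKM. Uvrag had 8.29, 8.08 and 7.20 FPKM with GFP alone and 10.1, 7.19 and 7.16 FPKM with GFP-CCNB1IP1, where replicate 1 alone stood above all others. Uvrag was the more abundant of these partners in each library, at 1.97 to 3.12 times the level of Atg14.

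The genes of lipid transfer and membrane supply had 4 positive and 4 negative fold changes. Wipi1 and Wipi2 encode readers of the lipid mark, and Wipi1 was the most abundant of the 38 genes. Wipi1 had 89.6, 96.3 and 90.3 FPKM with GFP alone and 93.0, 94.2 and 90.4 FPKM with GFP-CCNB1IP1, a fold change of 0.0079 (SE 0.047; limma, adjusted p = 0.971). Wipi2, the reader that recruits the ATG16L1 complex, had 34.3 ± 0.862 and 36.5 ± 2.38 FPKM. Wdr45, a member of the same family whose human gene is mutated in a neurodegenerative disorder with iron accumulation, had 8.11 ± 0.796 and 8.41 ± 0.818 FPKM.

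Vmp1, a membrane protein of the endoplasmic reticulum that moves lipids between leaflets, came next in abundance after Wipi1 and Gabarap. It had 60.4, 77.3 and 62.3 FPKM with GFP alone and 71.6, 74.8 and 71.7 FPKM with GFP-CCNB1IP1. GFP replicate 2 was the highest of all, and the other GFP libraries were the lowest. Atg2a and Atg2b encode bridge-like proteins that carry lipid from the endoplasmic reticulum to the growing membrane. Atg2b had 9.47, 9.67 and 9.997 FPKM with GFP alone and 9.27, 9.37 and 9.24 FPKM with GFP-CCNB1IP1. Its groups did not overlap, but the difference was small, with a fold change of -0.058 (SE 0.062; limma, adjusted p = 0.764). Atg2a had 6.92 ± 0.730 and 6.36 ± 0.588 FPKM.

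Atg9a and Atg9b encode the transmembrane scramblases of vesicles that seed the autophagosome. Atg9a had 13.4 ± 0.780 and 12.3 ± 0.294 FPKM, and its lowest GFP value, 12.5 FPKM, lay below the highest GFP-CCNB1IP1 value, 12.6 FPKM. Atg9b had 4.99, 5.48 and 7.80 FPKM with GFP alone and 5.32, 5.16 and 5.95 FPKM with GFP-CCNB1IP1, with GFP replicate 3 the highest. Atg9a exceeded Atg9b in each library, by 1.77 to 2.53 times.

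The 11 conjugation genes showed fold changes in both directions, 6 positive and 5 negative. Atg7 is the activating enzyme of both reactions, Atg3 and Atg10 are the transfer enzymes, Atg12 is joined to Atg5, and the Atg16l proteins place that conjugate on the membrane. The Atg4 proteases prepare ATG8 proteins for attachment and release them again. Their levels were moderate, with Atg16l2 the highest at a mean of 16.8 FPKM and Atg4c the lowest at 1.29 FPKM.

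Atg16l1 (ENSMUSG00000026289.16, chromosome 1, 87683592 to 87720150) had 11.1, 11.6 and 13.2 FPKM with GFP alone and 10.9, 10.5 and 10.04 FPKM with GFP-CCNB1IP1. All GFP-CCNB1IP1 values lay below all GFP values. The fold change was -0.17 (SE 0.080, 95% interval -0.36 to 0.011, limma, adjusted p = 0.463). Without GFP replicate 3, the highest library, it was -0.10 (adjusted p = 0.765), and without GFP replicate 1 it was -0.22 (adjusted p = 0.4965). Its relative Atg16l2, which is less able to support canonical autophagy, had 17.6 ± 1.98 and 16.0 ± 2.08 FPKM, and it exceeded Atg16l1 in each library by 1.35 to 1.68 times. The locus of Atg16l2 shares 21372 bases with that of Fchsd2, and strand was not stated, so reads of this pair may not be separable.

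Atg12 had 11.1, 10.99 and 10.6 FPKM with GFP alone and 12.6, 11.4 and 11.3 FPKM with GFP-CCNB1IP1. The groups did not overlap, and the fold change was 0.10 (SE 0.067; limma, adjusted p = 0.616). Without GFP-CCNB1IP1 replicate 1, the highest library, it was 0.057 (adjusted p = 0.849), and without GFP-CCNB1IP1 replicate 3 it was 0.13 (adjusted p = 0.679). Its partner Atg5 had 7.99 ± 0.118 and 8.36 ± 0.324 FPKM, with overlapping groups. Atg10, the enzyme that joins the 2 proteins, had 6.89, 6.42 and 6.97 FPKM with GFP alone and 5.43, 4.89 and 6.80 FPKM with GFP-CCNB1IP1. GFP-CCNB1IP1 replicate 3 lay within the GFP range and the other GFP-CCNB1IP1 libraries below it. Atg7 had 7.10 ± 0.682 and 8.13 ± 1.17 FPKM, and Atg3 had 8.97 ± 0.800 and 9.17 ± 0.768 FPKM. Of the genes acting on one conjugate, Atg12 and Atg16l1 thus had fold changes of opposite sign, and neither passed.

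Atg4b, the most active protease of its family, was the most abundant of the 4 Atg4 genes on average, with 17.5 ± 1.36 and 15.6 ± 2.06 FPKM. Atg4a had 6.78 ± 0.893 and 7.67 ± 0.920 FPKM, and Atg4d had 6.40 ± 0.732 and 5.64 ± 0.258 FPKM. Atg4c (ENSMUSG00000028550.16, chromosome 4, 99082171 to 99148024) had the lowest level of the 38 genes. It had 1.19, 1.04 and 1.04 FPKM with GFP alone and 1.75, 1.46 and 1.29 FPKM with GFP-CCNB1IP1. The groups did not overlap, and the fold change was 0.26 (SE 0.125; 95% interval -0.033 to 0.545; limma, adjusted p = 0.491). At this low level it depended on the constant added before the log, at 0.42 with a pseudocount of 0.1 and 0.094 with 5. From the deposited intervals, an estimated 30.2 to 51.4 fragments per library stood behind Atg4c, the lowest estimate of the 38 genes. The loci of Atg4b and Atg4d overlap those of Thap4 and Kri1, which had higher means of 22.9 and 19.3 FPKM.

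ATG8 proteins are the ubiquitin-like proteins that coat the autophagosome, and 4 of their genes were examined. All 4 ranked among the 8 most abundant autophagy genes. Gabarap had 66.4, 74.5 and 69.0 FPKM with GFP alone and 74.5, 65.2 and 77.7 FPKM with GFP-CCNB1IP1. Gabarapl1 had 56.2, 66.3 and 60.0 FPKM against 62.4, 56.7 and 58.0 FPKM. Map1lc3a, the LC3A gene, had 48.1, 52.3 and 43.1 FPKM against 49.8, 49.97 and 50.5 FPKM. The groups overlapped for these genes, with fold changes of 0.048, -0.040 and 0.069.

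Gabarapl2, the gene of GATE-16, separated the groups (ENSMUSG00000031950.8, chromosome 8, 112667335 to 112680244). It had 35.5, 48.6 and 43.5 FPKM with GFP alone and 49.9, 50.7 and 49.7 FPKM with GFP-CCNB1IP1. The GFP libraries spread widely, with a coefficient of variation of 15.6%, while the GFP-CCNB1IP1 libraries lay within 1.08%. GFP replicate 2 came within about 1 FPKM of the GFP-CCNB1IP1 libraries. The fold change was 0.24 (SE 0.102), or 1.18 times the GFP value, with an unadjusted p of 0.0464 and an adjusted p = 0.431 in limma. Without GFP replicate 1, the lowest library, the fold change was 0.12 (adjusted p = 0.600), and without GFP replicate 2 it was 0.34 (adjusted p = 0.250).

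The makeup of the 4 ATG8 transcripts was similar in the libraries. Gabarap held 29.3 to 33.0% of their summed FPKM and Map1lc3a held 20.0 to 23.3%, with the groups overlapping. Gabarapl1 held 27.3, 27.4 and 27.8% with GFP alone and 26.4, 25.5 and 24.6% with GFP-CCNB1IP1. Gabarapl2 held 17.2, 20.1 and 20.2% against 21.1, 22.8 and 21.1%. The groups separated for this last pair in opposite directions, by a few percentage points. Shares were computed for all 38 genes within their own role, and 8 of them separated the groups, 5 higher and 3 lower. No matching figure for shares exists over all genes, so this count has no background and is not read as a result. For FPKM itself, 17.6% of all genes tested separated the groups. The shares of one sum are not independent, and this pair was picked out after its values were seen and was not tested.

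**Figure D3:**
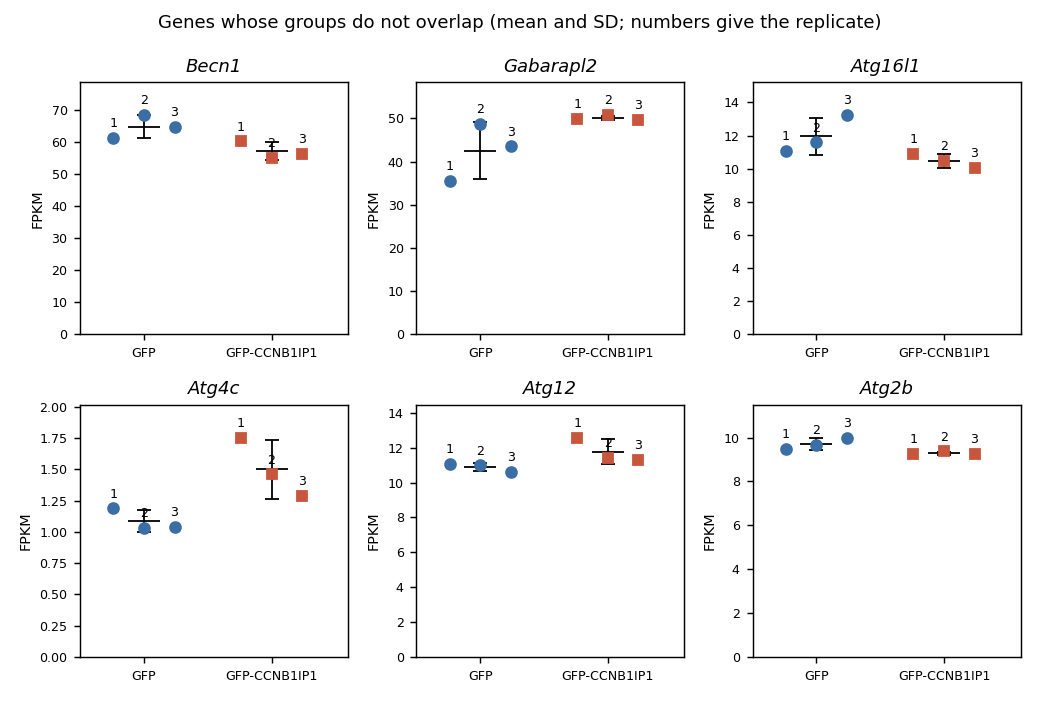
FPKM of the 6 autophagy genes whose groups did not overlap, by group, with replicate numbers above the points and bars for the mean and SD (n = 3). Becn1, Atg16l1 and Atg2b were lower and Gabarapl2, Atg4c and Atg12 higher in the GFP-CCNB1IP1 libraries, and none passed after adjustment.

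The 4 cargo receptors, which tie ubiquitinated or otherwise marked cargo to ATG8 proteins, overlapped between groups throughout. Nbr1, a receptor for ubiquitinated aggregates and peroxisomes, had 52.1 ± 3.79 FPKM with GFP alone (SD, n = 3) and 50.7 ± 2.95 with GFP-CCNB1IP1. Nbr1 lies 249862 bases from Becn1 on chromosome 11, which carries 6 of the 38 genes. Tax1bp1, a receptor for aggregates, had 36.4 ± 1.07 and 38.2 ± 0.783 FPKM. Calcoco1, a receptor for parts of the endoplasmic reticulum and Golgi, had 22.3 ± 2.53 and 22.0 ± 1.03 FPKM. Optn, whose product optineurin acts on damaged mitochondria and is linked to motor neuron disease, had the lowest level, with 11.7 ± 0.285 and 10.9 ± 0.762 FPKM.

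Summed over the 38 genes, FPKM was 814, 909 and 841 in the GFP libraries and 878, 846 and 856 in the GFP-CCNB1IP1 libraries. The GFP libraries held both the lowest and the highest sum. GFP replicate 2 was the highest library for 15 of the 38 genes and the lowest for 1, where over all genes tested it was the highest for 18.2% and the lowest for 16.98%. Its median deviation from each gene's mean was 0.069 for the autophagy genes and 0.0047 for all genes, on the log2(FPKM + 1) scale. In the other libraries the median deviation of the autophagy genes lay between -0.031 and 0.020. Without GFP replicate 2 the median fold change of the 38 genes was 0.032, of the opposite sign to the -0.038 with all libraries, and no gene of the set passed.

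**Figure D4:**
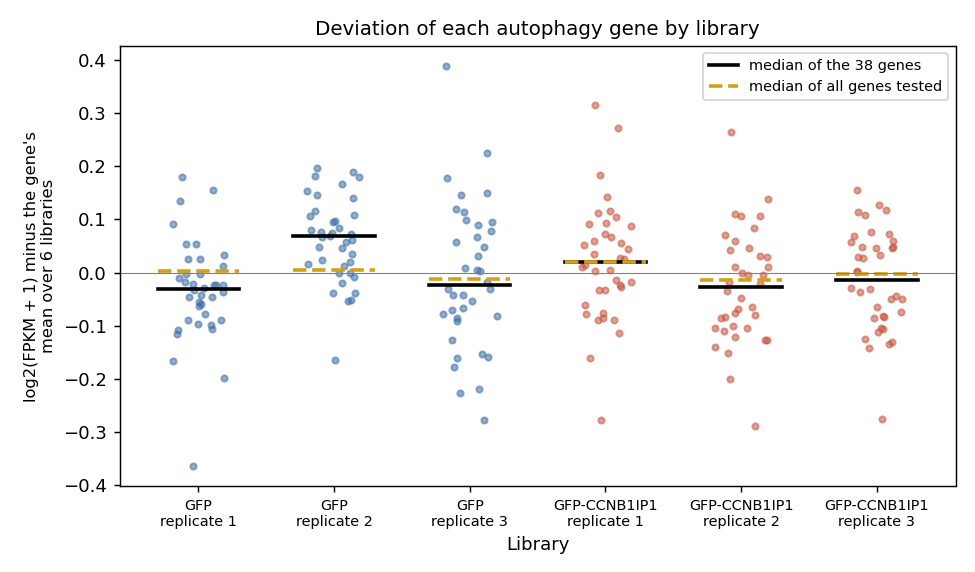
Deviation of each of the 38 autophagy genes from its own mean over the 6 libraries, on the log2(FPKM + 1) scale, by library; black lines are the medians of the 38 genes and dashed lines those of all genes tested. In GFP replicate 2 the median of the autophagy genes stands at 0.069, above the 0.0047 of all genes.

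Genes around the core machinery were read from 4 further lists, and none of their members passed. Of the mTORC1, AMPK and TFE genes, which sense nutrients and set autophagy gene expression, 29 of 31 were tested, with 4 higher and 1 lower at an unadjusted p under 0.05 and a median fold change of 0.040. That is 17.2% of the list, against 11.4% of all genes tested. Rheb, the GTPase that activates mTORC1, had 42.6 ± 1.67 and 48.9 ± 1.01 FPKM (limma, adjusted p = 0.270). Rraga, a GTPase that brings mTORC1 to the lysosome, had 32.9 ± 1.36 and 38.1 ± 2.56 FPKM (limma, adjusted p = 0.321). Tbc1d7, a subunit of the complex that restrains Rheb, had 1.03 ± 0.130 and 1.89 ± 0.637 FPKM (limma, adjusted p = 0.354). Its level was close to the filter of 1 FPKM, with an estimated 7.93 to 35.3 fragments per library. Stk11, the kinase LKB1 that activates AMPK, was the lower one, with 33.2 ± 1.47 and 30.1 ± 1.34 FPKM (limma, adjusted p = 0.430).

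Of the other cargo receptor and mitophagy genes, 20 of 22 were tested, with 3 higher and 0 lower at an unadjusted p under 0.05 (15.0%, against 11.4% of all genes tested) and a median of 0.066. Sqstm1, the gene of the receptor p62, had 405 ± 13.5 and 498 ± 19.9 FPKM (limma, adjusted p = 0.176). Its level was above that of each of the 38 genes in every library. Stbd1, a receptor for glycogen, had 33.6 ± 0.140 and 38.3 ± 0.946 FPKM, and Pink1, the kinase that marks damaged mitochondria, had 11.3 ± 0.258 and 12.7 ± 0.374 FPKM.

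Of the genes of fusion with lysosomes, 16 of 16 were tested, with 0 higher and 1 lower at an unadjusted p under 0.05 (6.25%, against 11.4%) and a median of 0.0029. The lower one was Vps11, a subunit of the tethering complexes of late endosomes, with 12.1 ± 0.695 and 10.5 ± 0.753 FPKM. Of the other genes of autophagosome formation, 14 of 16 were tested, with 2 higher and 0 lower (14.3%, against 11.4%) and a median of 0.063. Rab1a, a GTPase of transport from the endoplasmic reticulum, had 52.5 ± 0.704 and 59.0 ± 3.04 FPKM. Bcl2l1, whose product BCL-XL binds and restrains Beclin 1, had 23.8 ± 0.956 and 27.6 ± 2.33 FPKM. Neither passed, with adjusted p-values of 0.321 and 0.356 in limma.

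The summed level of the 14 noradrenergic markers ran from 1090 to 1186 FPKM with GFP alone and from 929 to 1010 FPKM with GFP-CCNB1IP1, with none at 0 in all libraries. The groups did not overlap in this sum. The 5 glial markers summed to 0.906 to 0.991 FPKM with GFP alone and 1.44 to 1.76 FPKM with GFP-CCNB1IP1, and the 7 mesenchymal markers to 758 to 832 and 811 to 899 FPKM, which overlapped. The part of these markers in the differences of Becn1 and Gabarapl2 was not tested. In these bulk libraries, fewer cells of a type and less RNA per cell cannot be told apart.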

How the data were processed

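Polyadenylated RNA was selected with oligo-dT beads and copied from random primers, per the labels' protocols; strand is not stated. HISAT2 and Cufflinks made the deposited FPKM, per the submitters' processing notes, without versions; the genome build is not given in the sources used here. Each table holds FPKM per gene with confidence bounds, per the file headers. Start positions, taken as 0-based in the tables, are printed 1-based.

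FPKM of rows sharing an identifier were summed (38 identifiers, none of an autophagy gene), leaving 53492 genes. Groups were compared with limma 3.58.1 under R 4.3.3 on log2(FPKM + 1), unblocked and with a mean-variance trend, for genes with a mean of at least 1 FPKM. The test was two-sided, with Benjamini-Hochberg adjustment over all 13231 genes. It was also run on simulated data, where the planted changes were larger than any fold change of the 38 genes. That run therefore does not cover differences as small as those reported here. An exact permutation test of 3 against 3 cannot go below 0.1 and was not used. Fragments were estimated as the squared ratio of FPKM to its standard error, with the deposited upper bound read as lying 2 standard errors higher. The estimate is not a count of reads. For Ambra1, at 13.1 to 13.9 FPKM over the libraries, it ran from 130 to 944.

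The genes and lists were chosen with earlier results of these data known. All 38 genes are named with levels; fold changes with errors are given for those with an unadjusted p under 0.05 or separated groups, and for Becn1 and Ulk1, beside a few others chosen after their values were seen. Up to 4 genes of each further list were named by smallest unadjusted p under 0.05. A search for promoter motifs was not run, since the reference sequences at hand are human. Map1lc3b was on the list of other genes of autophagosome formation, but no gene of that name was found in the data used here, so it was not tested.

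Alternatives were pseudocounts of 0.1 and 5, no filter, means of at least 5 and, added after the data were seen, 10 FPKM, median-of-ratios scaling, quantile normalization, TPM, the replicate number as a block, limma without the trend or with a robust prior, and each library left out in turn.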

Additional observations from a re-analysis of the deposited data

How the results depend on the processing

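No autophagy gene passed in any of the 17 alternatives run, with the smallest adjusted p of any of them between 0.224 and 0.546. The count of all genes called higher was 0 with a pseudocount of 5, no filter, the replicate block, limma without the trend and a mean of at least 10 FPKM, against 1. It ran from 0 to 2 with 1 library left out, and the count called lower from 0 to 2. Autophagy genes higher at an unadjusted p under 0.05 numbered 0 with no filter and with quantile normalization, against 1. With 1 library left out they numbered 0 to 3, and lower ones 0 to 2. Separated genes then numbered 3 to 9 higher and 5 to 7 lower, against 3 and 3 with all libraries. Fewer libraries make separation easier, and the share over all genes is not given for these fits, so these counts have no background. The median fold change of the 38 genes ran from -0.075 without GFP replicate 1 to 0.032 without GFP replicate 2. With 1 library left out the fold change of Ulk1 ran from -0.10 to 0.043, the latter without GFP replicate 2; the cause was not tested. Same-numbered libraries did not deviate together (correlations from -0.011 to 0.023), and not every library correlated best with its own number, so the numbers were not taken as pairs. Under the replicate block 0 autophagy genes passed, as without it, and the median was -0.038. Among the 38 genes, the estimated fragments were fewest for Atg4c.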
